A study of Ovis aries with 2 samples.

Results

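ACTA2 (smooth muscle alpha actin) and ACTG2 (smooth muscle gamma actin) were followed in single cells of a cell-free vascular graft and of a native carotid artery of sheep. The genes were taken by symbol, and each had 1 row among the 21890 genes of the deposited matrices, ENSOARG00020008488 for ACTA2 and ENSOARG00020009750 for ACTG2. The pair was chosen by its earlier measured UMI levels in the smooth muscle cells of these libraries, where ACTG2 had been higher in the graft, so its levels are given as a description. The graft, titled H2R5-ATEV, and the native artery, titled an aorta but described as a carotid artery, were both taken out at 12 weeks. The sheep (Ovis aries) were 1 to 2 years old per the labels, which give no strain, genotype or number of animals. Cells were freed by enzymes, cleared of red blood cells and captured with the 10x Chromium platform, with about 10000 cells aimed for per capture. There was 1 library of each tissue, so no test between them was possible. Intervals in parentheses are 95% intervals that cover counting error only.

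Actins are the proteins of the thin filament, along which myosin pulls to shorten a cell. In mammals ACTA2 is the main actin of arterial smooth muscle and is also made by myofibroblasts, whereas ACTG2 is best known from the muscle of the gut, bladder and uterus. Both genes are transcribed under serum response factor (SRF) and its partner myocardin, and the 2 proteins are nearly identical. How reads that match both genes were counted is not given in the sources used here.

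The graft library held 1229 barcodes and 36238351 UMIs, where a UMI marks 1 captured transcript. The native library held 11371 barcodes and 43183715 UMIs. After filters, 1074 graft cells with a median of 20737.5 UMIs and 10080 native cells with a median of 1510 UMIs remained, so depth differed greatly between the libraries. The libraries shared 7 barcodes. Clusters were named from marker genes, with both actins kept out of the clustering and out of the markers. The smooth muscle-like class held 201 graft cells with a median depth of 34653 UMIs and 143 native cells with a median depth of 2754 UMIs. In the graft, 197 of its cells lay in cluster 12 and 4 in cluster 16, while in the artery 12 lay in cluster 12 and 131 in cluster 16, so the class compares different clusters. All 11 smooth muscle markers were raised at least 2-fold in cluster 12, among them the myosin MYH11, transgelin (TAGLN) and calponin (CNN1), beside 5 pericyte markers. In cluster 16, 10 of the 11 were raised, beside 4 pericyte markers.

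The name of cluster 12 depended on the naming rule, and the graft values of the class rest on it. Clusters were first named by their mean marker score, under which cluster 12 scored highest for pericytes and stayed unnamed, and the class then held 4 graft cells and 131 native cells. The rule was changed, after those names were seen, to the list with the most raised markers. Among those 4 graft cells there was 1 ACTG2 UMI, and the log2 ratio of ACTG2, graft over native, was -0.16, against 3.54 for the class used here. When each library was clustered by itself, 98 of the 197 graft cells of cluster 12 stayed in a smooth muscle-like cluster. Of the rest, 76 and 22 fell in a pair of unnamed clusters led by fibroblast markers with pericyte markers beside them. Cell by cell, fibroblast markers had more UMIs than smooth muscle markers in 72 of the 201 graft cells and 40 of the 143 native cells. Moreover, 11 native cells of the class formed a mast-like cluster in that clustering, each with at least 2 mast cell markers and none with an actin UMI, and with 3 other settings 5 graft cells joined them. These cells stay in the class used here and in its denominators.

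Over all deposited barcodes, ACTA2 had 46685 UMIs in the graft and 2508 in the artery, which is 1288 and 58.1 CPM (UMIs of the gene per 1000000 UMIs). ACTG2 had 6981 UMIs in the graft and 55 in the artery, which is 193 CPM for graft barcodes and 1.27 CPM for native ones. These library levels hold the share of smooth muscle-like cells, which was 18.7% of kept graft cells and 1.42% of kept native cells.

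In smooth muscle-like cells ACTA2 was abundant in both libraries. It reached 4150 CPM (4112 to 4189) in graft cells and 2883 CPM (2767 to 3002) in native cells, from 45126 graft and 2325 native UMIs. The graft level was 1.44-fold the native one (1.38 to 1.5). That ratio moved with how the class was drawn: its log2 value was 0.53, but 1.34 when each cell was classed by its own markers and 0.27 among cells of at least 5000 UMIs. The level of ACTA2 was therefore higher in the graft in each of these settings, by an amount that varied with how the class was drawn.

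ACTG2 separated the libraries more widely. It stood at 621 CPM (607 to 636) in graft smooth muscle-like cells and at 53.3 CPM (38.6 to 71.8) in native ones, from 6757 graft and 43 native UMIs. The ratio was 11.7-fold (8.64 to 16.1), and on the log2 scale ACTG2 ranked 41 and ACTA2 2409 of 11573 genes, counted from the highest in the graft.

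Single barcodes weighed heavily on both sides of the ACTG2 ratio. One native barcode of cluster 12, with 29335 UMIs and 10 of the 11 smooth muscle markers, held 27 of the 43 native ACTG2 UMIs and 179 ACTA2 UMIs. The other 11 native barcodes of that cluster had no UMI of either actin and at most 1 smooth muscle marker each. Without the 1 barcode the native level was 20.6 CPM (11.8 to 33.4) and the ratio 30.2-fold (18.6 to 52.8). In the graft, 10 of the 201 cells held 57.5% of the ACTG2 UMIs, and without them the log2 ratio was 2.54, against 3.54 with them.

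ACTA2 had at least 1 UMI in 92.0% of graft cells (87.4 to 95.4) and 62.9% of native cells (54.5 to 70.9). ACTG2 was detected in 54.7% of graft cells (47.6 to 61.7) and 4.2% of native cells (1.56 to 8.91). Without the 11 mast-like cells ACTA2 was detected in 68.2% of native cells (59.5 to 76.0). These shares carry the difference in depth, within a library too: graft cells without an ACTG2 UMI had a median of 21355 UMIs, against 55489 in those with one, and native cells without an ACTA2 UMI had 1605, against 4147.5. A cell without a UMI may thus still express the gene. In graft cells ACTA2 had a median of 1.98 UMIs per 1000 UMIs of the cell, with quartiles of 0.219 and 5.62 and a highest value of 24.2. In the 109 native cells of at least 1000 UMIs the median was 0.783, the upper quartile 2.60 and the highest value 19.8. The most ACTA2-rich native cells thus came close to the most ACTA2-rich graft cells. For ACTG2 the graft median was 0.0197 per 1000, the 90th percentile 1.22 and the highest value 6.18, and in native cells the highest value was 1.99 and the median 0. ACTG2 was thus concentrated in a few graft cells: 8 of the 201 held 50% of its UMIs, 91 had none, and the highest cells had 818 and 790. ACTA2 was spread more evenly, with 25 graft cells holding 50% of its UMIs and 16 having none. These counts of UMIs also carry the depth of the cells. The cells with 818 and 790 ACTG2 UMIs had 288393 and 326397 UMIs in all, against a class median of 34653. Per 1000 UMIs of the cell, the standard deviation over the mean was 2.34 for ACTG2 and 1.16 for ACTA2 in graft cells.

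Outside the smooth muscle-like class both actins were low in both libraries, as the plot of levels by class shows. The class held 97.9% of the ACTA2 UMIs and 97.5% of the ACTG2 UMIs of kept graft cells. In the artery it held 93.5% of the ACTA2 UMIs and 81.1% of the ACTG2 UMIs. Fibroblast-like cells had 57.0 CPM of ACTA2 in the graft, against 5.76 CPM in the artery. Their ACTG2 was 1 UMI in the graft, or 2.85 CPM, and 0 UMIs in 1837 native cells, where 3 UMIs over the class would be 0.353 CPM. Endothelial-like cells had 28.9 CPM of ACTA2 in the graft, against 3.02 CPM in the artery. Macrophage-like cells had 32.8 CPM in the graft, against 3.69 CPM in the artery. T or NK-like cells, which should make little smooth muscle actin, had 87.1 CPM in graft cells and 4.95 CPM in native cells. Neutrophil-like cells had 250 CPM in graft cells (20 UMIs) and 48.5 CPM in native cells (1 UMI), and B or plasma-like cells had 20.5 CPM in the graft (3 UMIs), against 3.88 CPM in the artery (1 UMI).

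**Figure D1:**
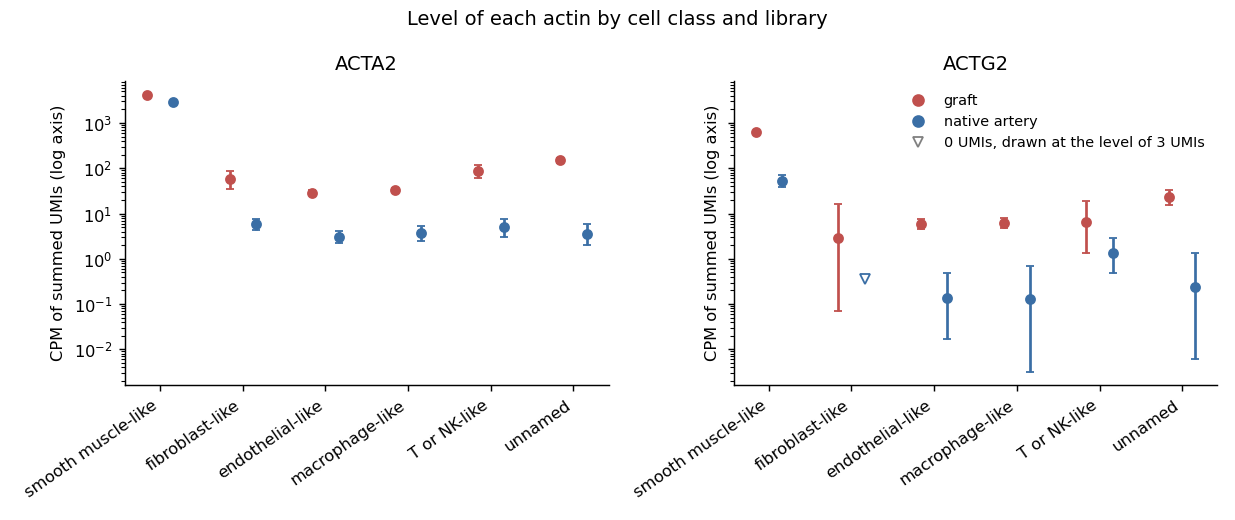
Level of ACTA2 (left) and ACTG2 (right) in summed UMIs of each cell class, in CPM on a log axis, with graft points left of native points and bars giving exact Poisson 95% intervals. Both genes peak in smooth muscle-like cells, at 4150 CPM (graft) and 2883 CPM (native) for ACTA2 and at 621 CPM (graft) and 53.3 CPM (native) for ACTG2, and the open triangle marks a class with 0 UMIs.

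The low levels of ACTA2 outside the class were higher in the graft for every named class with at least 30 cells in each library. ACTA2 was 9.57-fold (6.95 to 13.5) in endothelial-like cells, 8.88-fold (6.09 to 13.4) in macrophage-like cells and 17.6-fold (10.2 to 31.0) in T or NK-like cells, graft over native. Of all genes, 6.86%, 3.81% and 2.37% were at least 2-fold higher in these classes once 5 CPM had been added to each level. An ACTA2 UMI was found in 54.9% of graft endothelial-like cells (median depth 39928.5 UMIs) and 0.982% of native ones (1331 UMIs). In T or NK-like cells it was found in 42.0% of graft cells (6352 UMIs) and 1.64% of native cells (2084 UMIs). In both libraries ACTA2 per UMI was lower in endothelial-like and macrophage-like cells than in T or NK-like cells, with overlapping intervals in the artery, so no expression is read from these levels. The T or NK values rest on 41 graft and 22 native UMIs of ACTA2. The part of free RNA in the values outside the class was not tested.

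In the graft the ratio between the actins was close inside and outside the class. ACTG2 made up 13.0% (12.7 to 13.3) of the ACTA2 and ACTG2 UMIs in graft smooth muscle-like cells and 15.1% (13.1 to 17.3) in all other graft cells. It made up 17.1% in endothelial-like cells, 16% in macrophage-like cells, 13.3% in unnamed cells and 6.82% in T or NK-like cells (1.43 to 18.7). One endothelial-like barcode of 32838 UMIs held 77 ACTA2 and 35 ACTG2 UMIs, and without it the share was 10.1% in endothelial-like cells and 13.4% (11.3 to 15.6) in all cells outside the class. Among kept cells outside the class, 11 graft barcodes had 10 or more UMIs of either actin and no native barcode did. Of the barcodes removed by the filters, 2 graft ones had 10 or more ACTA2 UMIs, the highest with 359.

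In the artery ACTG2 made up 1.82% (1.32 to 2.44) of the pair in smooth muscle-like cells, and 5.85% (2.84 to 10.5) in all other cells, where it had 10 UMIs. Without the native barcode described above the share was 0.74%. This share compares UMIs of different genes, whose capture may differ, and is read between groups of cells and not as a ratio of proteins.

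**Figure D2:**
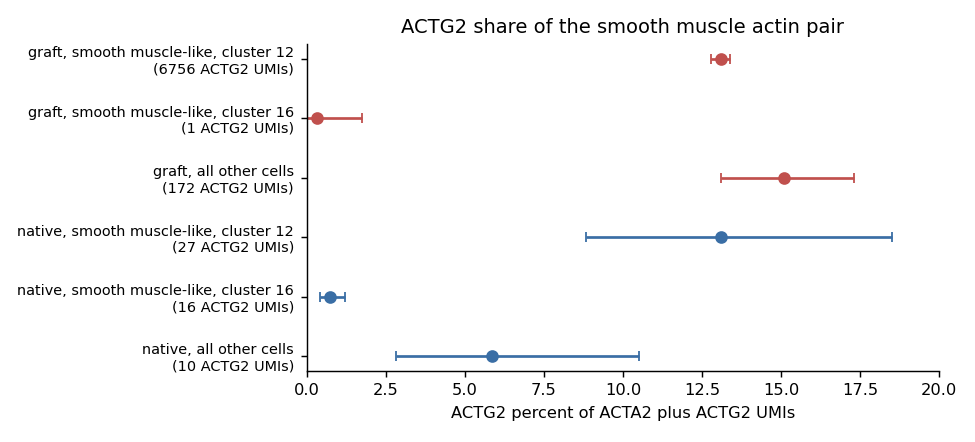
ACTG2 as a percent of ACTA2 plus ACTG2 UMIs in smooth muscle-like cells of clusters 12 and 16 and in all other cells, graft above native artery, with exact binomial 95% intervals. Cluster 12 and the other cells of the graft lie between 13.1% and 15.1%, while cluster 16 is under 1% in both libraries. The point of native cluster 12 rests on 1 barcode, which holds all its UMIs of both actins, and that of graft cluster 16 on 4 cells.

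In each library the share was higher in cluster 12 than in cluster 16. In cluster 12 it was 13.1% in both the graft and the artery, but all 27 native ACTG2 UMIs there came from 1 barcode. In cluster 16 it was 0.315% (0.00799 to 1.74) in the graft and 0.740% (0.424 to 1.20) in the artery, where ACTG2 had 1 UMI beside 316 of ACTA2 in the graft and 16 beside 2146 in the artery. The 4 graft cells of cluster 16 carried 3 to 118 ACTA2 UMIs each, so ACTA2 without ACTG2 was also recorded in the graft. Whether reads of ACTA2 were counted to ACTG2 was not tested. With 197 of the graft cells in cluster 12 and 131 of the native cells in cluster 16, library and cluster cannot be told apart.

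Both actins were found in the same barcode more often in the graft than in the artery, at unequal depth. Without thinning, 106 of 201 graft smooth muscle-like cells had both, or 52.7% (45.6 to 59.8), with 79 cells having ACTA2 alone, 4 ACTG2 alone and 12 neither. The product of the shares with each actin is 50.4%. In the artery 6 of 143 cells had both, or 4.2% (1.56 to 8.91), with 84 having ACTA2 alone, none ACTG2 alone and 53 neither, the product being 2.64%. The 6 native cells with ACTG2 had 27, 9, 3, 2, 1 and 1 of its UMIs. ACTA2 was present in 96.4% of graft cells with ACTG2, beside 92.0% of all graft cells of the class, and in all 6 such native cells. Outside the class, 10.4% of graft macrophage-like cells and 7.14% of graft endothelial-like cells also had both, against 0.0735% and 0% of native ones.

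Since graft cells were sequenced more deeply, each cell was also thinned at random to 1000 UMIs. Both actins were then found in 26 of 201 graft cells, or 12.9% (8.63 to 18.4), and in 1 of 109 native cells, or 0.917% (0.0232 to 5.01). This draw replaced an earlier one, after its values were seen, because the earlier draw changed with the order of the cells. The earlier draw gave 18.4% in the graft and 2.75% in the artery, and the mean over all possible draws was 16.9% in the graft and 2.64% in the artery. Thinning left out 162 of the 1074 graft cells and 3773 of the 10080 native cells over all classes. In macrophage-like cells, which are not known for smooth muscle actin, none of 316 thinned graft cells and none of 765 thinned native cells had both. The mean over all possible draws was 0.105% in these graft cells and 6.44e-05% in these native cells. At this depth few or none could be found, so no contrast is drawn from them. Outside the class, 2 of 70 thinned unnamed graft cells and 1 of 722 thinned native T or NK-like cells did.

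Among single graft cells the share of ACTG2 in the pair varied widely. In the 124 graft cells with at least 20 UMIs of the pair, the ACTG2 share had a median of 2.69%, an upper quartile of 10.7% and a highest value of 48.5%, and 26 cells had none. No cell had more ACTG2 than ACTA2 among these. In the 29 such native cells the median was 0, the highest value 13.1%, and 24 cells had none. The 13.0% of the summed graft UMIs is thus above the share of the typical graft cell. The mean of the shares of the 124 graft cells was 7.69%. A share taken from the mean levels of both actins, with equal weight for each of the 201 graft cells, was 9.45%.

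Across the 201 graft cells the levels of the actins, as log2 of CPM with 5 CPM added, had a Pearson r of 0.604 and a Spearman rho of 0.688. Among the 143 native cells r was 0.244 and rho 0.314. In graft cells of at least 5000 UMIs r was 0.602 (198 cells), and in native ones 0.284 (47 cells). The points of each library share 1 capture, and both values of a cell share its depth.

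**Figure D3:**
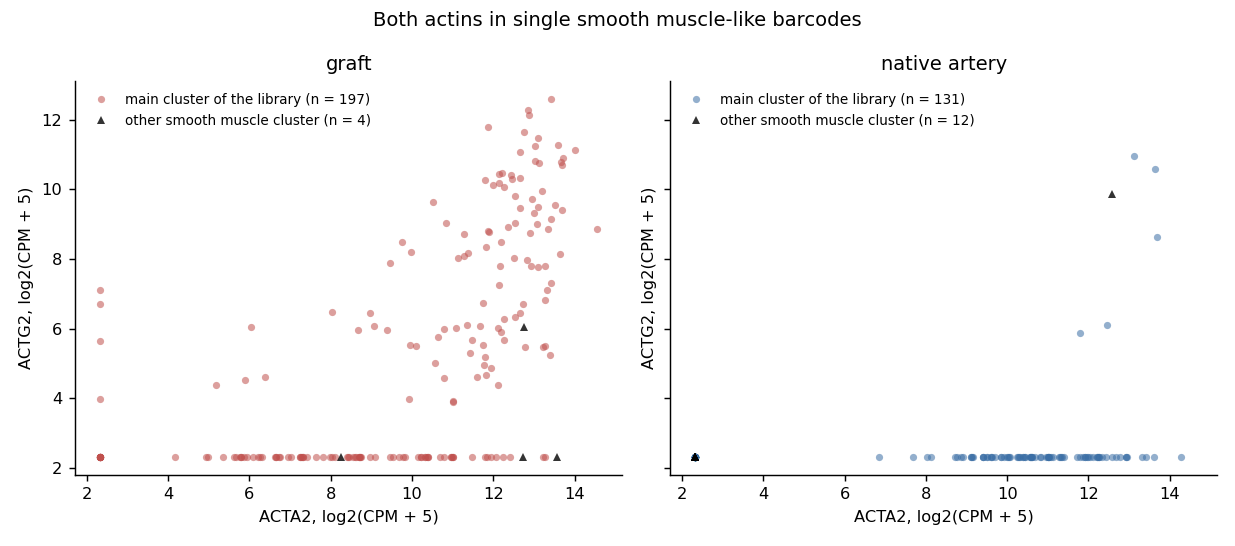
ACTA2 (x axis) against ACTG2 (y axis) in single smooth muscle-like barcodes, as log2 of CPM with 5 CPM added, graft left and native artery right, with triangles for cells of the other smooth muscle-like cluster. In the graft 106 cells lie above the base line with both actins, and in the artery 6 do.

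Smooth muscle-like cells were then split by their ACTA2 level. This description uses ACTA2 itself, and cells near a limit could fall on either side: 22, 11 and 6 graft cells and 3, 8 and 1 native cells lay within 20% of 10000, 1000 and 100 CPM. From the lowest range to the highest, the graft held 38, 44, 103 and 16 cells and the artery 53, 24, 60 and 6. ACTG2 stood at 6.01, 91.2, 770 and 1265 CPM in these graft ranges and at 0, 0, 62.7 and 365 CPM in the native ones. It was detected in 21.1%, 20.5%, 75.7% and 93.8% of the graft cells. ACTG2 was thus mostly in the 2 higher ranges of each library.

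Other genes of the contractile state went along with ACTA2. The 11 smooth muscle markers together stood at 914, 3287, 9624 and 20430 CPM in the graft ranges and at 1180, 2653, 7995 and 29560 CPM in the native ones. Fibroblast markers, such as the matrix genes DCN and LUM, ran the other way in the graft, at 7894, 4029, 2059 and 1196 CPM. In the artery fibroblast markers stood at 1120, 2942, 2734 and 335 CPM. Pericyte markers differed between the libraries in the highest range, at 1021 CPM in 16 graft cells and 5266 CPM in 6 native cells, both few. Macrophage markers in the graft stood at 559, 913, 1687 and 122 CPM.

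**Figure D4:**
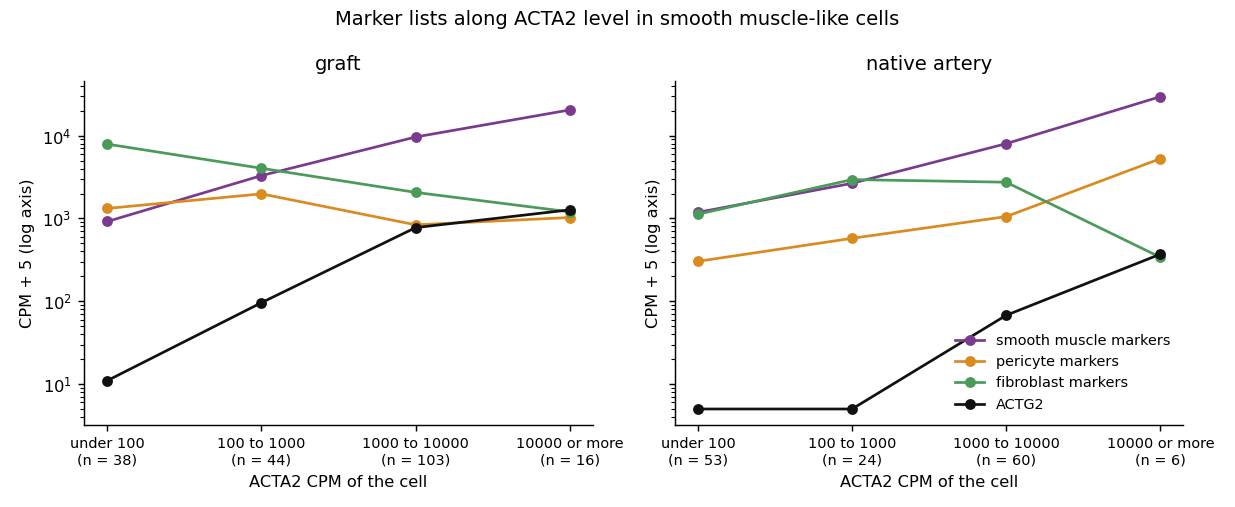
Summed level of the smooth muscle, pericyte and fibroblast marker lists and of ACTG2, in CPM with 5 CPM added on a log axis, in smooth muscle-like cells split by their own ACTA2 level, graft left and native artery right. In the graft the smooth muscle markers run up to 20430 CPM while the fibroblast markers run down to 1196 CPM, and the top range holds 16 graft cells and 6 native cells.

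Smooth muscle markers took 8.40 UMIs per 1000 over the class in the graft and 6.78 in the artery. Fibroblast markers took 2.97 UMIs per 1000 in the graft and 2.41 in the artery, and pericyte markers took 1.04 in the graft and 1.01 in the artery. Macrophage markers took 1.36 per 1000 in graft smooth muscle-like cells and 0.166 in native ones (where MRC1 and MSR1 had no UMI), beside 12.6 in graft and 10.4 in native macrophage-like cells. Mast cell markers took 0.0421 in the graft and 0.627 in the artery. Without the 11 native mast-like cells the native levels were 3079 CPM for ACTA2 and 56.9 CPM for ACTG2. The part of fibroblast-like, pericyte-like or macrophage-like cells, or of their RNA, in the actin levels was not tested.

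Genes were ranked by the likeness of their level to each actin over 11 profiles, each the summed cells of 1 class in 1 library, among 6127 genes. For ACTA2 the most alike were CNN1, a thin filament protein (r = 0.973), the adaptor gene STAC (0.965), the matrix gene POSTN (0.963), the myosin heavy chain MYH11 (0.959), the myosin light chain kinase MYLK (0.943), C1orf198 (0.942), ACTG2 itself (0.935) and the ubiquitin hydrolase UCHL1 (0.931). For ACTG2 they were the matrix protein tenascin C (TNC, 0.969), the fibrillin FBN2 (0.964), the adhesion gene NLGN1 (0.958), the calcineurin regulator RCAN2 (0.955), UCHL1 (0.952), TMEM132D (0.95), CNN1 (0.940) and the cadherin FAT3 (0.937). ACTA2 came next for ACTG2, at 0.935. CNN1 and UCHL1 stood in both lists. These values rest largely on the smooth muscle-like profiles, which were far above the others. CNN1, MYH11 and MYLK were also among the markers that named that class, so their high level there was partly given by the naming.

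The genes nearest to ACTG2 were all higher in graft than in native smooth muscle-like cells, which the choice by likeness favours, and by unequal amounts. TMEM132D was at 663 CPM in graft cells and 9.92 CPM in native cells. NLGN1 was at 509 CPM in graft cells and 18.6 CPM in native cells, and TNC at 318 CPM in graft cells and 40.9 CPM in native cells. The gap was narrower for RCAN2, at 97.3 CPM in graft cells and 19.8 CPM in native cells, and for FBN2, at 65.9 CPM in graft cells and 19.8 CPM in native cells. UCHL1 was at 272 CPM in graft cells and 105 CPM in native cells, and FAT3 at 104 CPM in graft cells and 44.6 CPM in native cells. The genes nearest to ACTA2 did not all lean to the graft. CNN1 was at 302 CPM in graft cells and 197 CPM in native cells, STAC at 50.6 CPM in graft and 53.3 CPM in native cells, and MYH11 at 642 CPM in graft and 1799 CPM in native cells.

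The rest of the actin family set the pair in context. ACTG1, the cytoplasmic gamma actin of all cells, was at 1933 CPM in graft smooth muscle-like cells and 864 CPM in native ones, 2.24-fold (2.07 to 2.42). It was as abundant elsewhere, at 2206 CPM in graft and 1565 CPM in native endothelial-like cells. The striated muscle actins had almost no UMIs in the class: ACTA1, of skeletal muscle, had 1 UMI in the graft and 2 in the artery, and ACTC1, of the heart, had 3 in the graft and 0 in the artery. ACTB was not found under that symbol and was not analysed here. Of the 5 measured family members, 2 (ACTG2 and ACTG1) were at least 2-fold higher in the graft and none lower, after adding 5 CPM. ACTG2 was chosen with its higher graft level known, so its place in this count is no separate result. ACTA1 and ACTC1 had too few UMIs to pass 2-fold. The background was 13751 genes with a UMI in the class, of which 7.05% passed 2-fold upward and 6.92% downward. The median log2 ratio of these 13751 genes was 0.03. Among genes with at least 10 UMIs, 8.37% passed upward and 8.12% downward. The family's median of 0.53 was the value of ACTA2 itself.

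Few regulators of smooth muscle actin transcription passed 2-fold, in counts close to the shares of all genes. Of 14 measured, 1 was at least 2-fold higher in the graft and 2 lower, beside 7.05% and 6.92% of all genes, with a median log2 ratio of -0.39. MYOCD, the muscle-restricted partner of SRF, was at 24.7 CPM in graft cells and 38.4 CPM in native cells (0.644-fold, 0.443 to 0.966). SRF itself had 108 UMIs in the graft and 5 in the artery, at 9.93 CPM in graft and 6.20 CPM in native cells (1.60-fold, 0.666 to 5.03), an interval that takes in no difference. Among the actin-sensing partners of SRF, MRTFA was at 178 CPM in graft cells and 93.0 CPM in native cells (1.92-fold, 1.52 to 2.45), and MRTFB at 118 CPM in graft and 176 CPM in native cells (0.672-fold, 0.565 to 0.805). The related factors thus differed in direction.

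FHL1, a LIM domain protein of muscle, was lowest of the regulators in the graft, at 172 CPM against 777 CPM in the artery (0.222-fold, 0.202 to 0.243). FOXO4, a forkhead factor, was at 2.85 CPM in graft cells and 12.4 CPM in native cells from 31 graft and 10 native UMIs (0.230-fold, 0.110 to 0.526). CRIP1, another LIM domain gene, had the highest ratio, at 1789 CPM in graft cells and 649 CPM in native cells (2.76-fold, 2.53 to 3.02). SMAD3, which carries TGF-beta signals, was at 24.0 CPM in graft and 49.6 CPM in native cells. KLF4, a repressor of contractile genes, was at 87.1 CPM in graft and 128 CPM in native cells. Both were thus below the native level in the graft. The cyclic GMP kinase PRKG1 was at 267 CPM in graft and 360 CPM in native cells, and the receptor NOTCH3 at 164 CPM in graft and 155 CPM in native cells. Of the cysteine-rich LIM proteins, CSRP1 was at 525 CPM in graft and 458 CPM in native cells, and CSRP2 at 328 CPM in graft and 420 CPM in native cells. ELK1, an SRF partner, was at 10.8 CPM in graft and 7.44 CPM in native cells, from 117 graft and 6 native UMIs, and its ratio of 1.45-fold (0.645 to 4.02) takes in no difference.

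Thin filament and dense body genes, the partners of actin in the filament, had 4 of 19 members at least 2-fold higher in the graft. None was lower, beside 7.05% of all genes higher and 6.92% lower, and the list's median log2 ratio was 0.60. The abundant members differed less than 2-fold. TAGLN was at 3674 CPM in graft cells and 2087 CPM in native cells (1.76-fold), and caldesmon (CALD1) at 4237 CPM in graft and 2821 CPM in native cells (1.5-fold). The tropomyosin TPM1 was at 2551 CPM in graft and 1422 CPM in native cells (1.79-fold), and TPM2 at 2126 CPM in graft and 1102 CPM in native cells (1.93-fold). These 4 ratios lie above the 1.44-fold of ACTA2. The largest were those of desmin (DES), an intermediate filament protein, at 42.7 CPM in graft cells (464 UMIs) and 8.68 CPM in native cells (7 UMIs), (4.92-fold, 2.37 to 12.3), the tropomyosin TPM4 (2.73-fold) and PDLIM5 (2.47-fold), which binds alpha actinin.

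Of 13 thick filament genes, none was at least 2-fold higher and 1 was lower, counts close to the 7.05% and 6.92% of all genes, and the median log2 ratio was 0.05. MYH11, the smooth muscle myosin heavy chain, was the lower one, at 642 CPM in graft cells and 1799 CPM in native cells (0.357-fold, 0.337 to 0.378). The light chains MYL6 and MYL9 were 1.30-fold and 1.03-fold, and the myosin phosphatase subunit PPP1R12A was 1.05-fold. PPP1CB, the catalytic subunit of that phosphatase, was 0.573-fold and the kinase ROCK1 0.638-fold. The actins and MYH11 thus differed between the libraries in opposite directions. The other heavy chains of the list were higher in the graft, MYH9 at 1.45-fold (1.3 to 1.63) and MYH10 at 1.33-fold (1.2 to 1.47).

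Actin assembly genes had 3 of 16 members at least 2-fold higher in the graft and none lower, with a median of 0.54. Of all genes, 7.05% were higher and 6.92% lower. Cofilin (CFL1), which severs filaments, was at 815 CPM in graft cells and 361 CPM in native cells (2.26-fold), ARPC2, of the branching Arp2/3 complex, at 594 CPM in graft and 228 CPM in native cells (2.60-fold), and the formin DIAPH3 at 118 CPM in graft and 13.6 CPM in native cells (8.65-fold, 4.82 to 17.4). DSTN and GSN, which also cut filaments, were at 1.07-fold and 1.13-fold.

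The myofibroblast list had 7 of 12 members at least 2-fold higher in the graft and none lower, with a median of 1.18. The shares of all genes were 7.05% higher and 6.92% lower. Collagen I (COL1A1) was at 11340 CPM in graft cells and 1830 CPM in native cells (6.19-fold, 5.88 to 6.53), fibronectin (FN1) at 5984 CPM in graft and 1722 CPM in native cells (3.47-fold), and COL3A1 at 8100 CPM in graft and 3711 CPM in native cells (2.18-fold). THBS1, a matrix glycoprotein, was at 1461 CPM in graft and 38.4 CPM in native cells (38.0-fold, 26.8 to 55.9). CTHRC1 had 847 UMIs in the graft and 0 in the artery. Against a floor of 3 counts over the class its ratio was 20.9-fold, and the exact interval had a lower limit of 17.0-fold. POSTN differed little, at 4186 CPM in graft and 3405 CPM in native cells (1.23-fold). No list was tested against chance.

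**Figure D5:**
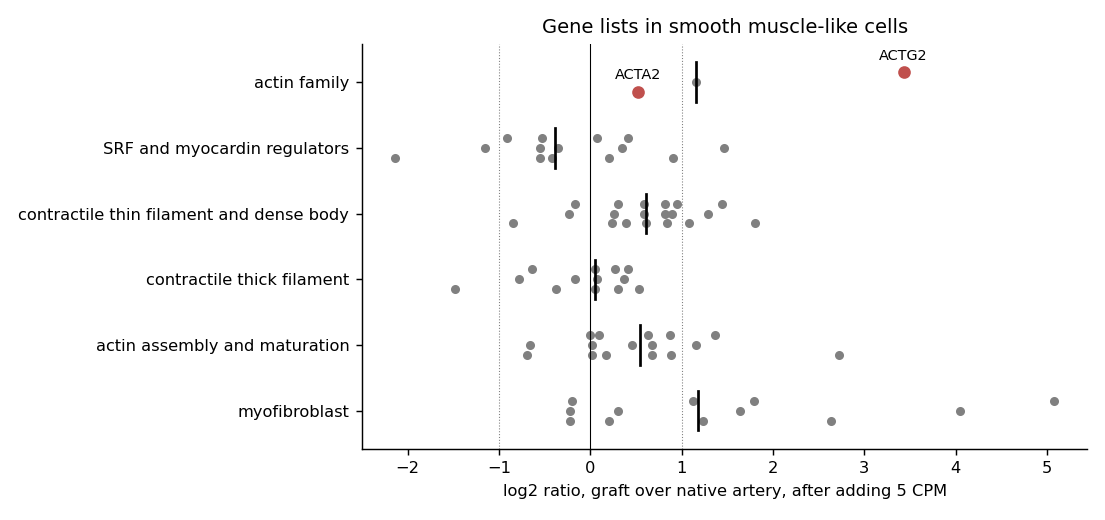
Log2 ratio of each list member with at least 10 UMIs in smooth muscle-like cells, graft over native artery after adding 5 CPM, with 1 row of points per gene list, a black bar at the list's median and dotted lines at 2-fold. ACTG2 lies at 3.43 and ACTA2 at 0.53, and the regulators are the only list here whose median is below 0.

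Within single graft cells, and among the list genes, ACTA2 varied most closely with TAGLN (r = 0.823), TPM2 (0.814), MYL9 (0.768) and CNN1 (0.750) over 201 cells. ACTG2 varied most closely with CNN1 (0.717), THBS1 (0.640), TPM2 (0.618) and TAGLN (0.598). Of 19 thin filament genes, 14 had an r above 0.5 with ACTA2 and 8 with ACTG2. Of the 14 regulators, 3 did with ACTA2 and none with ACTG2. MYH11, lower in the graft as a whole, had an r of 0.701 with ACTA2 and 0.549 with ACTG2 among these cells. In the myofibroblast list THBS1 was the only one of 12 members with an r above 0.5 in graft cells, at 0.721 with ACTA2, while COL1A1 had 0.368. In the 143 native cells TAGLN (0.643) and MYL9 (0.613) had the highest r with ACTA2. In the 47 native cells of at least 5000 UMIs MYH11 (0.917) and TAGLN (0.896) did, and MYL9 had 0.746. Matrix genes of the myofibroblast list also had an r above 0.5 with ACTA2 in those 47 cells: COL1A1 (0.753), COL3A1 (0.717) and POSTN (0.632). The other measured members of that list were at 0.445 (FAP) or lower. Over all 143 native cells the highest of the list was COL3A1, at 0.456.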

How the data were processed

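Droplet single-cell libraries of 1 graft and 1 native artery were read as the deposited filtered matrices of raw UMI counts per gene and barcode. The authors' processing notes name Seurat 5.0.0, Cell Ranger 7.2.0, R 4.3.3 and bcl2fastq 2.20.0.422, with no role for any, per the submitters' processing notes. The genome build is not given in the sources used here, so no coordinates are printed.

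Barcodes with at least 200 genes and at most 20% of UMIs from 13 mitochondrial genes were kept. The top Scrublet scores were then removed at 0.8% per 1000 barcodes, since its automatic call marked 0.244% of graft and 0% of native barcodes and was not used. Both libraries were clustered together with scanpy 1.11.5 and leidenalg 0.10.2 (2000 variable genes, 30 principal components, 15 neighbours, resolution 1), without integration. A cluster took the name of the marker list with most members raised at least 2-fold and needed 3 of them, with fewer raised markers and leading genes of any other class. This naming rule and the random draw behind thinning were changed after their first results were seen, and the first results are given as well.

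Levels are CPM of summed UMIs with exact Poisson intervals. Ratios have exact conditional binomial intervals and shares Clopper-Pearson intervals at 95%. A count of 0 was set against a floor of 3 counts. List ratios and likeness used CPM with 5 CPM added. Named genes were both actins, the 8 genes most alike to each, all measured actin family members and regulators, and of other lists the 4 most abundant and the 3 with the largest ratio. The members, the lists and the rules were chosen with earlier results of these data known. With 1 library per tissue no test was made. Calculations were checked on simulated counts.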

Additional observations from a re-analysis of the deposited data

How the results depend on the processing

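No paired analysis was possible because there was 1 library of each tissue. Settings on left-out barcodes or mast-like cells, on main clusters, on draws and on naming were chosen after seeing the data, and the others were planned. The log2 ratio of ACTA2 was 0.53 and stayed positive, at 0.42 with a mitochondrial limit of 10% and also without doublet removal, 0.44 with 4000 variable genes, 0.85 with each library clustered by itself (102 graft cells in the class, not 201), 1.34 with cells classed by their own markers, 0.27 in cells of at least 5000 UMIs and 0.79 with equal weight for each cell. The log2 ratio of ACTG2 was 3.54 and 4.31 with cells classed by their own markers. The graft share of ACTG2 in the pair was 13.0%, 13.5% with separate clustering, 13.6% with own markers and 9.45% with equal weight. Graft cells with both actins were 12.9% after thinning, 25.5% with separate clustering, 19.7% with own markers, 28.4% when thinned to 3000 UMIs and 6.97% when at least 2 UMIs of each were required. Native cells with both were 0.917% after thinning, and 0% after thinning among cells of at least 5000 UMIs. Without thinning, native cells of 29335, 18535, 15785, 7626 and 5932 UMIs had both actins. The 0% thus does not mean that deep native cells lack the pair. With 1 CPM added in place of 5 CPM, 1 thin filament gene was lower in place of 0.

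Without the native barcode richest in ACTG2, the log2 ratios were 0.59 for ACTA2 and 4.92 for ACTG2, and the native ACTG2 share was 0.74%, not 1.82%. With the main cluster of each library alone, the ACTG2 ratio was 4.82 and the native share 0.74%. Without the 10 graft cells richest in ACTG2, the ratios were 0.35 and 2.54 and the graft share 7.78%. A random stream shared by all cells gave 18.4% of graft cells with both actins. Naming clusters by marker score first left 4 graft cells and reversed the ACTG2 ratio, to -0.16. The ACTA2 ratio was then 1.08, and the ACTG2 shares were 0.315% in the graft and 0.74% in the artery. After thinning, 0% of graft cells then had both actins. The class lost 197 graft and 12 native cells there by construction. Without the 11 native mast-like cells the ACTA2 ratio was 0.43. For the other moved values the cause was not tested. Depth limits the native side most, where ACTG2 rests on 43 UMIs.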
